A study of Homo sapiens with 2 samples.

Results

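The nuclear genes of respiratory complex I were examined for MYBL2 binding in Ewing sarcoma cells. The genes were taken by name: every protein-coding gene of the GENCODE annotation on hg19 whose symbol starts with NDUFA, NDUFB, NDUFC, NDUFS or NDUFV, which gave 48 of 20098 protein-coding genes. By known role they were 7 core subunits, 30 accessory subunits, 8 assembly factors (NDUFAF genes) and 3 genes that carry the name but do not encode complex I subunits. NDUFA4 is now counted as a subunit of complex IV, NDUFA4L2 is its paralogue, and NDUFC2-KCTD14 is a read-through gene of NDUFC2 and its neighbour. The complex I subunits encoded by mitochondrial DNA do not meet the naming rule.

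The measurement was chromatin immunoprecipitation followed by sequencing (ChIP-seq), which reads the DNA fragments that an antibody pulls down with its target protein. It was done in unmodified A673 cells, an established Ewing sarcoma line that grows in culture and carries the EWSR1-FLI1 fusion. The series comprises 1 library made with an antibody that the labels describe as anti-MYBL2, while the methods describe it as recognising phosphorylated MYBL2, and 1 input library of sheared chromatin of the same cells without antibody. The comparison asks where in the genome ChIP fragments pile up above that input, and with 1 library in each group the values carry no replicate error and ChIP was not tested against input. The peak list holds no expression values, so the cell line was not checked against marker genes, and a smaller share of cells with the protein bound cannot be told apart from weaker binding in every cell.

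Complex I is the entry point of the mitochondrial respiratory chain: it takes electrons from NADH, passes them along a flavin and a row of iron-sulfur clusters to ubiquinone, and pumps protons across the inner membrane. Its core subunits carry that chemistry, the accessory subunits surround and stabilise them, and assembly factors join the modules and leave the finished enzyme. MYBL2 is a MYB family transcription factor best known for switching on genes of the late cell cycle together with the MuvB complex, which contacts a short element named CHR in their promoters.

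A promoter was the stretch of 1000 bp on either side of any annotated transcription start site (TSS) of a gene, and a gene was counted as bound when a peak of the deposited list reached into it. All 48 complex I genes had a promoter peak, against 59.4% of protein-coding genes (11941 of 20098). The strength of a peak was its fold enrichment, the linear ratio of ChIP fragments over the summit to the local background, and where a gene had several promoter peaks the strongest was used. A fold enrichment of 5 or more was reached by 47 of 48 genes, all but NDUFAF2, against 49.6% of protein-coding genes. The median over the 48 genes was 11.8 (range 3.33 to 34.7, quartiles 9.14 and 13.9), and the median over all 11941 bound protein-coding genes was 8.67. The best peak of 36 complex I genes lay above the latter value, and 5 genes were among the strongest 10% of bound protein-coding genes.

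Promoters rich in CpG dinucleotides were common among these genes. A CpG observed/expected ratio of 0.6 or more within 500 bp of the outermost TSS was found in 42 of 48 complex I genes and in 59.7% of protein-coding genes. Among genes with such promoters, 42 of 42 complex I genes were bound, against 79.1% of 12000 protein-coding genes (9491 bound). The median fold enrichment of the CpG-rich complex I genes was 11.5 and that of all bound CpG-rich genes 9.07. At several genes the stretch used for the ratio did not reach the best peak, so the ratio does not describe the DNA under it. Among genes under 0.6 these included NDUFB2, NDUFAF1, NDUFV1 and NDUFAF3, and among CpG-rich ones NDUFS3, NDUFAF6, NDUFB10 and NDUFA4L2. This was not examined for the other protein-coding genes. Complex I genes thus had higher shares both of CpG-rich promoters and of bound genes than protein-coding genes at large. The complex I genes with a ratio under 0.6 were all bound as well. Over the 48 genes the Spearman rank correlation of the ratio with fold enrichment was 0.138. Whether CpG content bears on binding was not tested, nor was the difference between complex I and other CpG-rich genes.

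**Figure D1:**
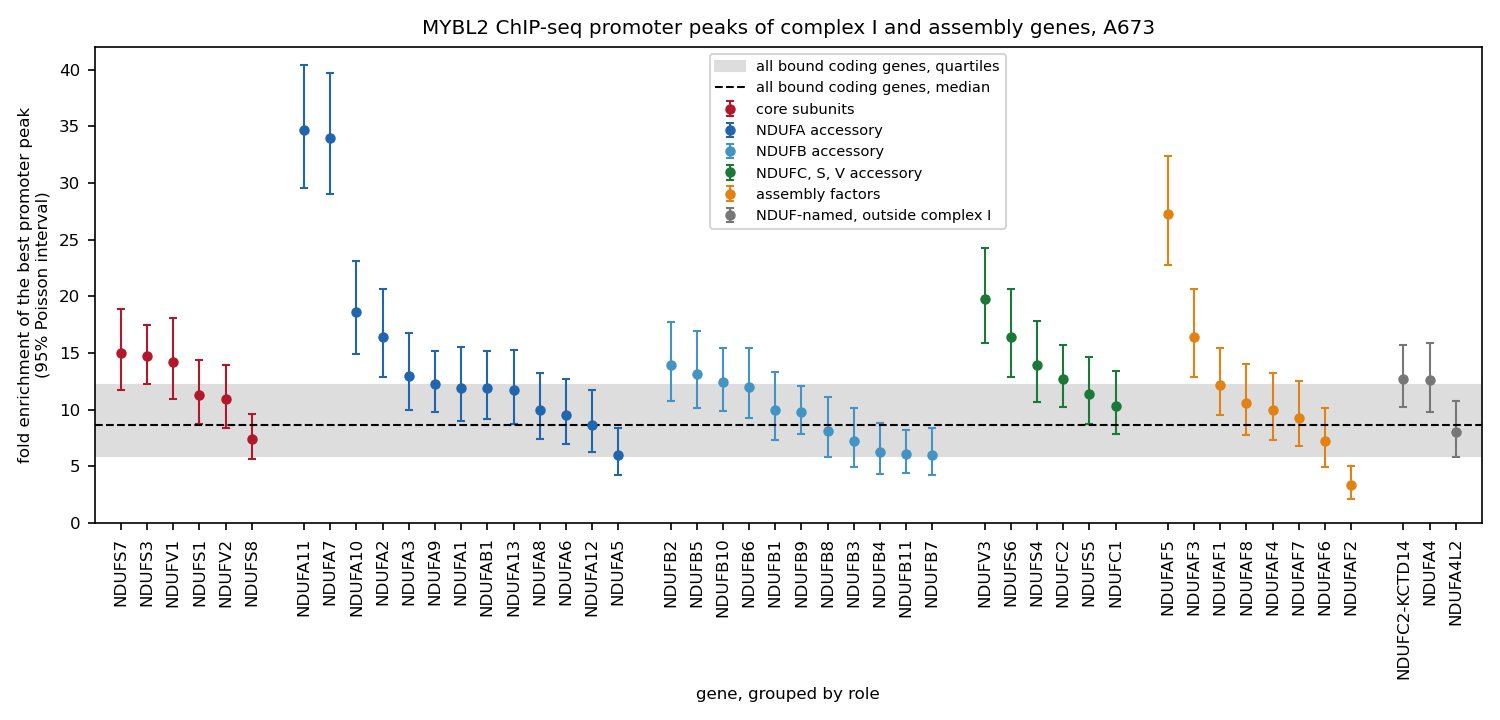
Fold enrichment of the best promoter peak (y axis, linear, no unit) of 47 of the 48 genes (x axis), grouped by role. Points are the deposited values, and bars are 95% Poisson intervals that cover the counting error of the ChIP fragments only. The dashed line with the grey band marks the median and quartiles of all 11941 bound protein-coding genes. NDUFA11, NDUFA7 and NDUFAF5 stand above all other genes and NDUFAF2 below them.

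The DNA under the summits of the strongest peaks is shown because these genes have the largest fold enrichment of the set. NDUFAF3 is added because it is one of the genes described in full. NDUFS3, NDUFB5 and NDUFS6 were chosen after their values were seen: the first 2 hold matches to several motifs, and NDUFS6 has a pair of peaks of nearly equal height. Each is the longest run of bases within 50 bp of the summit that lies outside the exons of coding transcripts, from GRCh37 (hg19), written 5′ to 3′ on the strand of the gene. Capitals mark matches to the motifs described further on (MYB, CCAAT box, ETS or SP1), and a sequence without capitals holds none in the printed run. They come from chr3:49058833-49058901 (NDUFAF3, plus strand), chr19:5903802-5903859 (NDUFA11, minus), chr19:8386274-8386374 (NDUFA7, minus), chr20:13765566-13765646 (NDUFAF5, plus), chr21:44299650-44299720 (NDUFV3, plus), chr2:240964807-240964875 (NDUFA10, minus), chr11:47600529-47600580 (NDUFS3, plus), chr3:179322445-179322545 (NDUFB5, plus) and chr5:1801481-1801520 (NDUFS6, plus).
NDUFAF3: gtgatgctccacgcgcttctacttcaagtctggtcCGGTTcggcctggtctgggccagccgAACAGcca
NDUFA11: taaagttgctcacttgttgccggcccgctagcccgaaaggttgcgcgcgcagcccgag
NDUFA7: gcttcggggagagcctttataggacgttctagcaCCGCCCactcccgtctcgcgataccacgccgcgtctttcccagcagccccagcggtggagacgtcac
NDUFAF5: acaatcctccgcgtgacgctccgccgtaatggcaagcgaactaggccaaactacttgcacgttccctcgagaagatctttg
NDUFV3: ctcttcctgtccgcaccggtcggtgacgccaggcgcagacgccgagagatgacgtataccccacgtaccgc
NDUFA10: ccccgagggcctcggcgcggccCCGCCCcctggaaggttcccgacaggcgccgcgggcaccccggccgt
NDUFS3: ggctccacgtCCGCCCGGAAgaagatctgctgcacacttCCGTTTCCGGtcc
NDUFB5: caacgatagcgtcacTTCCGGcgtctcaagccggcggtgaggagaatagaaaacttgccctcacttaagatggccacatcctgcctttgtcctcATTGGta
NDUFS6: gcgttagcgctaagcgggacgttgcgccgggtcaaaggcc

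The core subunits, which hold the flavin and the iron-sulfur clusters, were bound at 7 of 7 genes with a median fold enrichment of 11.3 (range 7.44 to 15.0). NDUFS7, whose protein carries the last cluster before ubiquinone, had the largest value, 15.0, from 70 fragments at chr19:1383209-1384065. The counting error on those fragments gives the ratio a 95% Poisson interval of 11.7 to 18.9. NDUFS3, a subunit of the arm that reaches into the matrix, followed at 14.7 (interval 12.3 to 17.5) with a peak at chr11:47599331-47601300. Its peak held 124 fragments, more than that of NDUFS7, over a local background of 7.5 fragments against 3.73 at NDUFS7. NDUFV1, which binds NADH and the flavin, reached 14.2 and its partner NDUFV2 10.9. NDUFS1, the largest core subunit encoded in the nucleus, stood at 11.3. NDUFS8 at 7.44 was the weakest core gene, and its interval (5.64 to 9.64) holds the median of bound protein-coding genes. None of the 7 core genes had an interval wholly below that median.

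The NDUFA accessory subunits held the strongest peaks of complex I. All 13 were bound, with a median of 11.9 and a range of 6.01 to 34.7. NDUFA11, a membrane subunit, had the largest value of the 48 genes, 34.7, from 163 fragments over a background of 3.73 (interval 29.6 to 40.4), and 99.0% of bound protein-coding genes had a weaker best peak. Its peak at chr19:5903304-5904329 was 1026 bp wide, with the summit 8 bp upstream of the TSS. The same peak covered promoters of 3 other annotated coding genes, VMAC among them. NDUFA7, a subunit of the matrix arm, reached 34.0 from 160 fragments (interval 29.0 to 39.7). The intervals of these genes overlap almost completely, so their order was not detectable at this depth.

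The NDUFA7 peak was the widest of the set, 4459 bp at chr19:8385616-8390074, and it also covered the promoter of RPS28, a ribosomal protein gene that starts 121 bp away on the other strand. Its summit lay 65 bp upstream of the NDUFA7 TSS. When at least 0.5 of a peak's length had to lie in the promoter, this wide peak no longer counted and the value of NDUFA7 dropped to 4.04. NDUFA10, a membrane arm subunit with a kinase-like fold, reached 18.6 (82 fragments, interval 14.9 to 23.1, chr2:240964638-240965352) at a promoter that no other annotated coding gene shared. NDUFA2, a matrix arm subunit with a thioredoxin fold, reached 16.4 (72 fragments, interval 12.9 to 20.6, chr5:140026511-140027654), and its peak also covered the promoter of IK, a splicing factor gene. Among the other NDUFA genes, NDUFA9, NDUFA1, NDUFAB1, NDUFA13, NDUFA8, NDUFA6 and NDUFA12 lay between 8.67 and 12.3, a narrow band beside the strongest 4, and NDUFA3 with 57 fragments had an interval of 9.92 to 16.8. NDUFAB1 encodes the mitochondrial acyl carrier protein and NDUFA13 is also known as GRIM-19. NDUFA5 was the weakest at 6.01 (34 fragments, interval 4.22 to 8.34, chr7:123197566-123198275), with its interval wholly below the protein-coding median.

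The NDUFB accessory subunits, which sit in the membrane arm, had the lowest median of the subunit groups, 9.81 (range 6.0 to 13.9, 11 of 11 bound). NDUFB2 at 13.9, NDUFB5 at 13.1, NDUFB10 at 12.4 and NDUFB6 at 12.0 were the strongest, and NDUFB1, NDUFB9, NDUFB8 and NDUFB3 lay between 7.19 and 9.99. Of the 5 weakest genes of the whole set, 3 were NDUFB genes. NDUFB4 had 30 fragments and a fold enrichment of 6.27 (interval 4.29 to 8.86, chr3:120315082-120315798). The X-linked NDUFB11 had 39 fragments and 6.06 (interval 4.36 to 8.23, chrX:47003973-47004943). NDUFB7 had 33 fragments and 6.0 (interval 4.19 to 8.36, chr19:14682488-14683106). These 3 genes and NDUFA5 cannot be ranked, since each value lies inside the intervals of the others. The summits of NDUFB4, NDUFB11 and NDUFB7 lay 182, 156 and 236 bp downstream of the nearest TSS, farther downstream than most. From the canonical TSS, those of NDUFB4 and NDUFB7 lay 203 and 240 bp downstream, but that of NDUFB11 lay 608 bp upstream.

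The value of NDUFB10 depends on how a promoter peak is counted. Its best peak, 12.4 at chr16:2010470-2012392, had its summit 1711 bp downstream of the nearest TSS, in coding sequence, and only its edge entered the promoter. The same peak covered the promoter of RPS2, another ribosomal protein gene. With the summit required in the promoter, NDUFB10 was left with a second peak of 7.44, the summit of which was 28 bp downstream of the canonical TSS. With 7.44 in place of 12.4, the median of the NDUFB group falls below 8.67, the median of all bound protein-coding genes.

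The other accessory subunits, NDUFC1, NDUFC2, NDUFS4, NDUFS5, NDUFS6 and NDUFV3, had the largest group median, 13.3 (range 10.3 to 19.8, 6 of 6 bound). NDUFS6, a zinc-binding subunit added late in assembly, had 72 fragments and a value of 16.4 (interval 12.9 to 20.6, chr5:1801054-1801913) with the summit 26 bp upstream of its TSS. A second peak of 16.0 with 70 fragments lay 1437 bp upstream, and the best peak also covered the promoter of the mitochondrial ribosome gene MRPL36. The peaks of NDUFS6 are equal within counting error. NDUFS4, a subunit whose loss causes Leigh syndrome, reached 13.9, NDUFC2 12.7, NDUFS5 11.4 and NDUFC1 10.3.

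NDUFV3, a small subunit of the NADH-binding module, had the largest value of that group, 19.8 from 87 fragments (interval 15.9 to 24.3, chr21:44298905-44300095). That peak lay 13749 bp upstream of the canonical TSS, at the start of an NDUFV3 transcript that is not annotated as coding, and it covered the promoter of WDR4, a tRNA modification gene. At the canonical TSS of NDUFV3 the value was 7.94. With that value in place of 19.8, the median of the group would be lower than 13.3 and its range would start at 7.94. For 46 of the 48 genes the best peak was also the strongest that reached within 1000 bp of the canonical TSS. Its summit could lie farther off, as at NDUFB10 (1731 bp).

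The 8 assembly factor genes were all bound, with a median of 10.2 and a range of 3.33 to 27.3. NDUFAF5, which hydroxylates an arginine of NDUFS7, had 128 fragments and a fold enrichment of 27.3 (interval 22.8 to 32.4, chr20:13765213-13766197), the third largest of the set. Its summit lay 57 bp upstream of the nearest TSS, in a promoter shared with ESF1, a gene of ribosomal RNA processing that starts 109 bp away on the other strand. NDUFAF8, the partner that stabilises NDUFAF5, reached 10.6. Its interval (7.79 to 14.0) holds the protein-coding median.

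NDUFAF3, which builds the ubiquinone-binding module together with NDUFAF4, had 72 fragments and a value of 16.4 (interval 12.9 to 20.6), and 89.1% of bound protein-coding genes had a weaker best peak. The peak at chr3:49058558-49060725 was 2168 bp wide and had its summit 187 bp upstream of the nearest NDUFAF3 TSS and 703 bp upstream of the canonical TSS. It also covered the promoter of DALRD3, a tRNA methylation gene, and a second, weaker promoter peak of NDUFAF3 had a value of 4.72. NDUFAF4 stood at 9.93 (interval 7.33 to 13.2). The CpG observed/expected ratio within 500 bp of the outermost NDUFAF3 TSS (chr3:49057892) was 0.4, the lowest among the 10 strongest genes. That stretch ends before the peak begins, so the ratio does not describe the DNA under the peak.

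Of the other assembly factors, NDUFAF1, part of the membrane arm assembly complex, reached 12.2, NDUFAF7, an arginine methyltransferase, 9.3, and NDUFAF6, an early factor, 7.19. NDUFAF2, a paralogue of the subunit NDUFA12 that holds its place during assembly, had the weakest peak of all 48 genes. It held 21 fragments over a background of 5.6, a fold enrichment of 3.33 (interval 2.12 to 5.02, chr5:60240710-60241038) with a −log10 q of 4.54, and a second peak of 3.03. The promoter is shared with ERCC8, a DNA repair gene that starts 135 bp away. NDUFA12 itself reached 8.67, and the intervals of this paralogue pair, which hold the background fixed, do not overlap (6.25 to 11.7 for NDUFA12). Only 2.5% of bound protein-coding genes had a weaker best peak than NDUFAF2.

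The 3 genes outside complex I were bound as well. NDUFA4 reached 12.6 and its paralogue NDUFA4L2, known as a hypoxia target, 8.05, with the latter's summit in the 3′ UTR 1748 bp downstream of the nearest TSS. When the summit had to lie in the promoter, NDUFA4L2 kept a value of 7.74. NDUFC2-KCTD14 shares its start, its peak and thus its value of 12.7 with NDUFC2, so the 48 genes rest on 47 distinct best peaks. Without these 3 genes the median was 11.7.

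**Figure D2:**
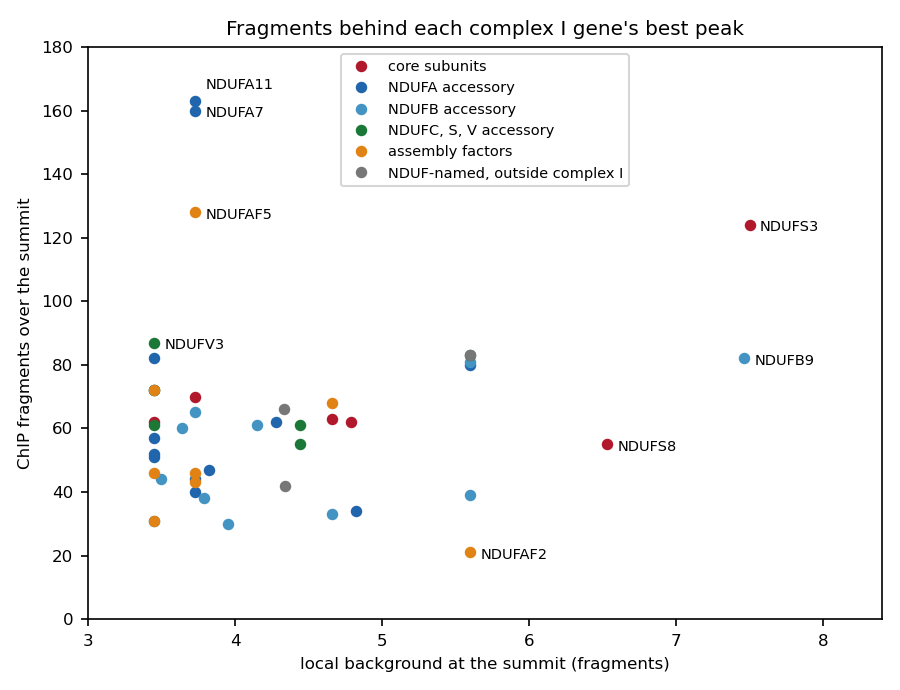
ChIP fragments over the summit of the best promoter peak (y axis, linear count) against the local background at the same base (x axis, fragments), 1 point per gene for 47 of the 48 genes, coloured by role. Most genes lie at a background under 5 fragments, while NDUFS3 and NDUFB9 lie above 7 and have more fragments than their fold enrichment alone would show. The lowest background, 3.45, is the floor of the whole list.

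Fold enrichment combines the fragments in the ChIP library with the input, and the order of the genes shifts somewhat when the fragments are read alone. The median was 61 fragments (range 21 to 163) against 43 over bound protein-coding genes. NDUFA11, NDUFA7 and NDUFAF5 kept the leading places, while NDUFS3 with 124 fragments moved from the tenth to the fourth. NDUFB9 had 82 fragments, as many as NDUFA10, but a fold enrichment of 9.81 against 18.6, since its background was 7.46 fragments against 3.45. A background above 5 was found at 10 genes. At 13 genes it was at 3.45, the floor of the background in the whole list, which cannot be read as input measured at those sites. Peak width had a median of 944 bp (range 329 to 4459 bp) against 865 bp for bound protein-coding genes, with NDUFAF2 the narrowest and NDUFA7 the widest.

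Counting error of the ChIP fragments limits how finely the genes can be ranked. The intervals hold the background fixed, so the error of the input is not in them and they are narrower than the full counting error. The 95% interval of the fold enrichment lay wholly above the protein-coding median of 8.67 for 27 genes, held it for 17, and lay wholly below it for 4. Those 4 genes were NDUFB11, NDUFA5, NDUFB7 and NDUFAF2. By role, the interval lay above that median for 9 of 13 NDUFA genes, 5 of 6 genes of the NDUFC, NDUFS and NDUFV accessory group, 4 of 7 core genes, 4 of 11 NDUFB genes and 3 of 8 assembly factors. The ranges of the role groups overlap, and no difference between roles was tested.

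To set complex I beside the rest of the respiratory chain, the same measure was taken for other gene lists. Every gene of complexes II to V was bound (61 of 61), 59 of them at a fold enrichment of 5 or more, with a median of 11.3 against 11.8 for complex I. Among these complexes the median was 9.47 for complex II (8 genes), 11.3 for complex III (14 genes), 10.3 for complex IV (22 genes) and 13.3 for complex V (17 genes). A further 13 complex I assembly factors without an NDUF symbol were all bound as well, with a median of 11.2. Mitochondrial ribosome genes were bound at 77 of 78, with a median of 10.8, and 7 of 8 regulators of mitochondrial gene expression were bound, with a median of 14.2. Complex I was therefore within the range of other mitochondrial lists, by its count and by its median.

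The 20 late cell cycle genes, the class MYBL2 is best known for, were all bound and had a median of 15.4 (range 7.56 to 37.1). Of the 48 complex I genes, 40 lay inside that range and 8 below it, among them NDUFS8, NDUFA5 and NDUFAF2. Above the late cell cycle median lay 8 complex I genes, the leading 8 from NDUFA11 to NDUFS6. No difference between the lists was tested.

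**Figure D3:**
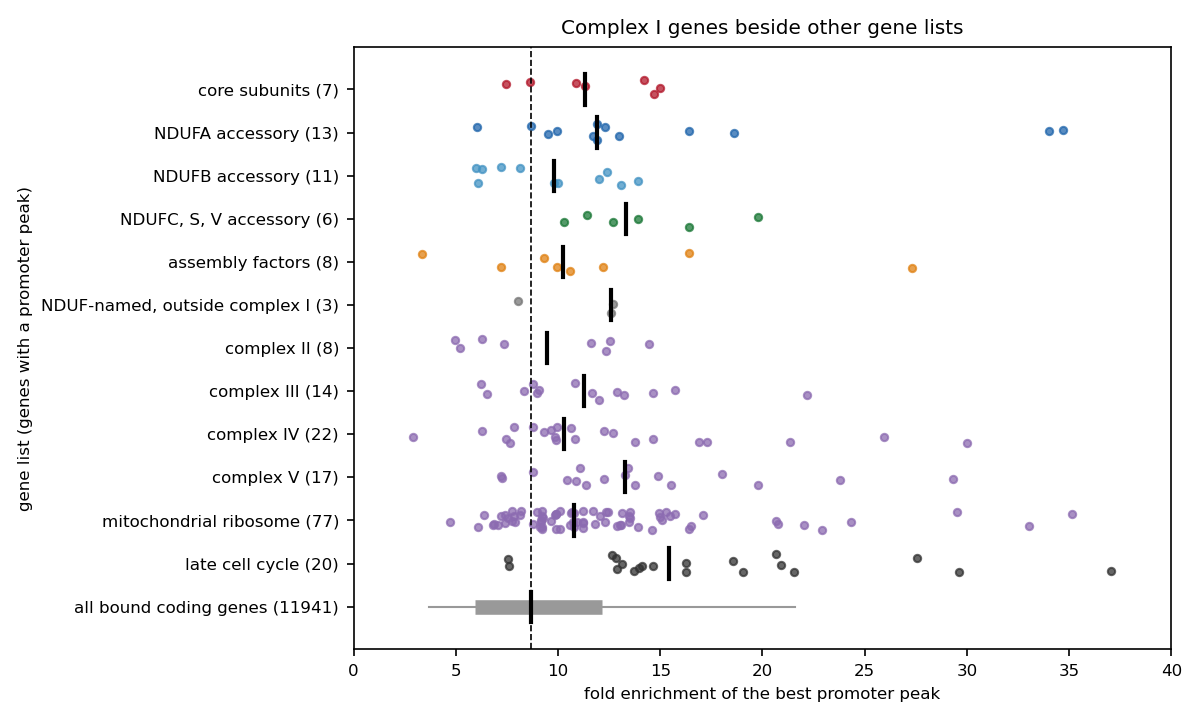
Fold enrichment of the best promoter peak (x axis, linear) for complex I genes by role and for other gene lists (y axis, with the number of bound genes in brackets). Points are genes, shifted at random in height for visibility, black ticks are medians, and the grey bar shows the quartiles (thick) and the 5th to 95th percentile (thin) of all bound protein-coding genes, the median of which is the dashed line. All complex I role medians lie to the right of that line, as do those of complexes II to V, and the late cell cycle genes have the median farthest to the right. The NDUFB median counts NDUFB10 at 12.4, and with its value of 7.44 for a summit inside the promoter that median would lie left of the line.

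The summits lay close to the start of transcription. The distance to the nearest TSS of the gene had a median of 24.5 bp over the 48 complex I genes and 73 bp over bound protein-coding genes. It was 100 bp or less for 37 complex I genes (77.1%), against 58.6% of bound protein-coding genes, and 500 bp or less for 46. The exceptions were NDUFB10 and NDUFA4L2. The summit was upstream of the TSS in 24 genes, downstream in 22 and at the very base in 2, NDUFA3 and NDUFC1. Measured from the canonical TSS, the median distance of the same summits was 52.5 bp against 126 bp, and 33 genes (68.8%) were within 100 bp against 44.4%.

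All 48 genes also had a peak within 1000 bp of the canonical TSS alone, against 55.9% of protein-coding genes, with a median of 11.5 against 8.65. In the canonical transcript the summit lay in front of the first exon for 27 genes, in the 5′ UTR for 11, in coding sequence for 5, in an intron for 4 and in the 3′ UTR for 1. Exactly 1 promoter peak was found at 29 genes, 2 at 12 genes and 3 or more at 7 genes, with at most 6 at NDUFV2.

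**Figure D4:**
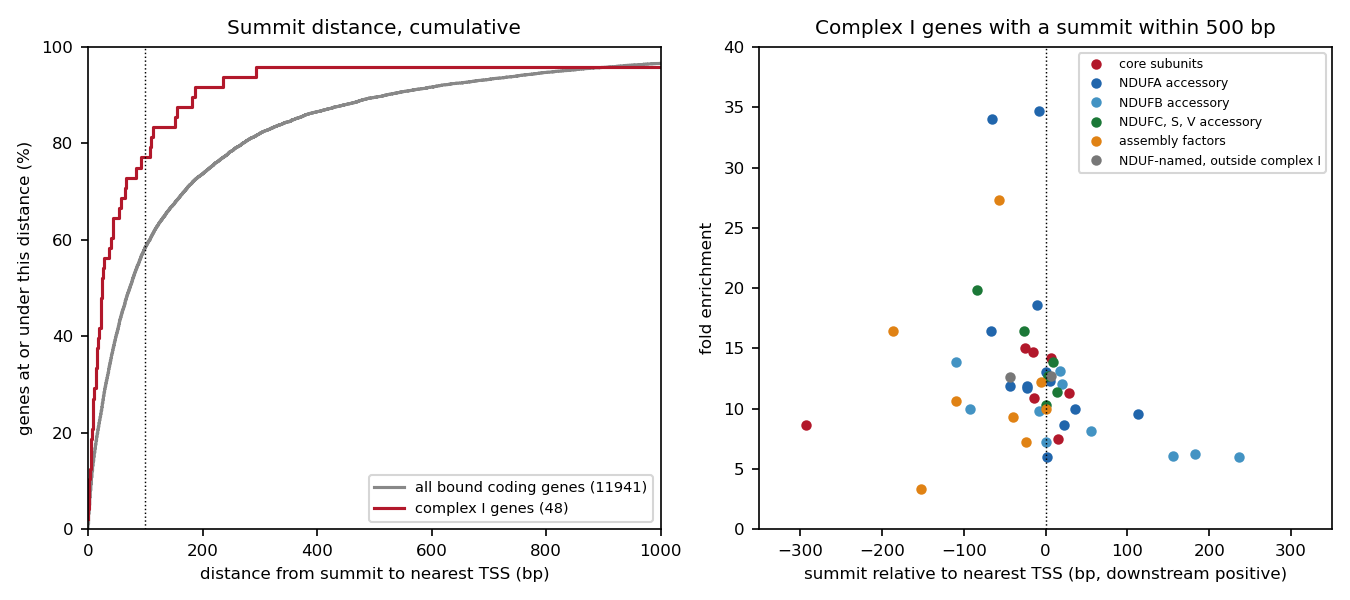
Left, the share of genes (y axis, percent) whose best peak has its summit at or under a given distance from the nearest TSS (x axis, bp), for the 48 complex I genes and all 11941 bound protein-coding genes, with a dotted line at 100 bp. Right, the fold enrichment of the 46 complex I genes with a summit within 500 bp (y axis) against the signed position of the summit from the nearest TSS (x axis, bp, downstream positive). The strongest peaks lie just upstream of that TSS. The summits of 3 weak NDUFB genes lie 156 to 236 bp downstream of it, although that of NDUFB11 is upstream of its canonical TSS.

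Many complex I promoters are shared with a neighbour, so a peak cannot always be given to the NDUF gene alone. The best peak also covered a promoter of another protein-coding gene for 28 of 48 complex I genes (58.3%), against 30.7% of bound protein-coding genes. For 17 of them (35.4%, against 14.7%) the neighbour was divergent, that is, on the other strand with a canonical TSS within 1000 bp upstream. The gap between those TSSs had a median of 135 bp and ranged from 38 bp, between NDUFB9 and TATDN1, to 677 bp, between NDUFA13 and TSSK6. Divergent neighbours included the ribosomal protein gene RPS28 at NDUFA7, the mitochondrial ribosome gene MRPL47 at NDUFB5, the translation elongation factor gene EEF1B2 at NDUFS1 and KBTBD4 at NDUFS3. The median fold enrichment was 11.3 for the 17 genes with a divergent neighbour and 12.0 for the other 31. To which gene of such a pair the bound protein belongs cannot be told apart from the peak list.

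To see which sequence elements lay under the peaks, 10 short motifs were sought on both strands within 50 bp of each summit, and matches of different motifs were allowed to overlap. The letters searched were AACNG for MYB, TTTGAA for CHR, CCAAT for the CCAAT box bound by NF-Y, TTTCCCGC or TTTGGCGC for E2F, CCGGAA for ETS factors, GCATGCGC for NRF1, ATGGCGG for YY1, GGGCGG for SP1, TGACGTCA for CREB and AAGGTCA for ERR. Of the 48 complex I genes, 16 held none of them, 18 held 1, and NDUFS7 held the most, with 4. A match is only a run of letters, and its absence says only that these letters are not in the window.

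The MYB letters were found at 15 of 48 complex I genes (31.2%), against 39.1% of the summits of bound protein-coding genes. These were 4 core genes (NDUFS7, NDUFS3, NDUFV1 and NDUFS1), 2 NDUFA, 5 NDUFB and 1 NDUFC gene, and the assembly factors NDUFAF3, NDUFAF1 and NDUFAF2. NDUFAF3 held 2 MYB matches, both in capitals in its printed sequence, while NDUFA11, NDUFA7 and NDUFAF5, with the 3 largest values, held none. Genes with the MYB letters had a median fold enrichment of 11.3 and those without 11.9. These medians lay close together, and the weakest peak, that of NDUFAF2, was among those with the letters.

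The CHR letters were found at 0 of 48 complex I genes and at 3.37% of bound protein-coding genes, and at 11 of the 20 late cell cycle genes. The CCAAT box was found at 2 complex I genes (4.17%), NDUFB5 and NDUFAF8, against 10.0% of bound protein-coding genes and 12 of 20 late cell cycle genes. MYB letters were found at 12 of those 20. In complexes II to V, CHR letters were found at 0 of 61 genes, the CCAAT box at 6 (9.84%) and MYB letters at 23 (37.7%).

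**Figure D5:**
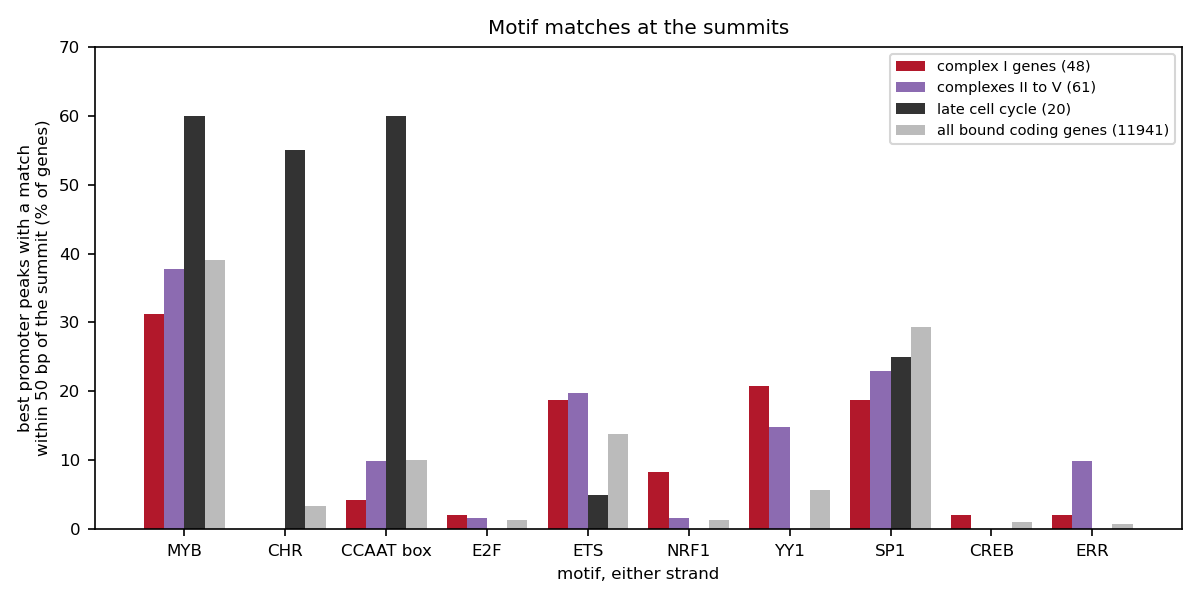
Share of genes (y axis, percent, from 0) whose best promoter peak holds a match to each of 10 motifs (x axis) within 50 bp of the summit, on either strand. Bars compare the 48 complex I genes, 61 genes of complexes II to V, 20 late cell cycle genes and all 11941 bound protein-coding genes: MYB, CHR and CCAAT box bars are tallest for the late cell cycle genes, and the YY1 bars of complex I and of complexes II to V both stand above that of all bound genes.

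Letters of factors known to act on respiratory genes were found at some complex I summits. NRF1, named for its role in nuclear control of the respiratory chain, matched at 4 genes (8.33%, against 1.37% of bound protein-coding genes): NDUFS6, NDUFS7, NDUFA8 and NDUFAF4. The NRF1 share was 5.19% at mitochondrial ribosome genes and 1.64% at complexes II to V. ETS letters were found at 9 genes (18.8% against 13.8%), among them NDUFS3, NDUFB5 and NDUFA13, and SP1 letters at 9 (18.8% against 29.3%). The ETS share was 35.1% at mitochondrial ribosome genes and 19.7% at complexes II to V. With 100 bp either side of the summit it was 22.9% for complex I against 24.4% of bound protein-coding genes. ERR letters were found at 1 gene, NDUFB9 (2.08% against 0.687%), and at 6 of 61 genes of complexes II to V. CREB letters were found at NDUFA10 alone (2.08% against 0.997%) and E2F letters at NDUFS6 alone (2.08% against 1.35%), and a count of 1 gene cannot be set apart from these shares.

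YY1 letters were found at 10 complex I genes (20.8%), against 5.69% of bound protein-coding genes. Mitochondrial ribosome genes held them at 14 of 77 (18.2%) and complexes II to V at 9 of 61 (14.8%), so the share was not far from that of other mitochondrial lists. The complex I genes were NDUFV3, NDUFS6, NDUFS4, NDUFA9, NDUFA13, NDUFS1, NDUFB1, NDUFAF7, NDUFAF6 and NDUFA5. These letters contain the start codon ATG, and summits lie close to the start of the gene, so matches at annotated start codons were counted apart. Of 11 matches, 6 in 6 genes began at a start codon of a coding transcript, which leaves 4 genes (8.33%) with matches elsewhere only. Over bound protein-coding genes, 45.2% of the 679 genes with YY1 letters had a match at a start codon, and 3.12% of all bound genes had matches elsewhere only. None of these shares was tested, and the letters alone do not show which protein was on the DNA.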

How the data were processed

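The deposited file is a narrow peak list of the MYBL2 ChIP library called against the input library. Per the labels and the study's methods, the authors aligned 100 bp single-end reads to hg19 with Bowtie2 2.1.10 and called peaks with MACS2 2.0.10. The deposited fold enrichment is a linear ratio, and the deposited −log10 p, −log10 q, score and summit positions come from the same caller. How the list was cleaned before deposit is not given in the sources used here. The input has no file of its own and enters through these values.

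Members and lists were chosen with earlier results of these data known. All 66954 peaks were kept and joined to the TSSs of 20098 protein-coding genes on chromosomes 1 to 22 and X (GENCODE 44 lifted to GRCh37, the coordinates of hg19). The canonical transcript was the one tagged so, and for 1 member without the tag the one with the longest coding sequence. Whole-number fragment counts were solved from fold enrichment, (fragments + 1) / (background + 1), and the Poisson p. The solved count missed the deposited −log10 p by at most 3.49e-05, and its neighbouring whole numbers by 0.038 or more. The depth behind each value is this fragment count. Intervals are exact Poisson intervals at 95% of the ChIP fragment count, with the background held fixed. They cover that counting error only, since duplicate reads are not independent molecules. The solver and the promoter join were tested on simulated data.

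A single gene enters the counts and medians only, and its own values are not reported here. Named in full were NDUFAF3, the 10 members with the largest and the 5 with the smallest fold enrichment. Lists were described by counts and medians without tests. Alternatives were other promoter windows, TSS sets, overlaps, peak thresholds, ranking by −log10 q, wider motif windows and CpG-rich promoters. Python 3.11.15, pandas 2.3.3, scipy 1.17.1, pysam 0.24.0 and samtools 1.23.1 were used.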

Additional observations from a re-analysis of the deposited data

How the results depend on the processing

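The count of bound complex I genes was within 1.5 times of 48 under all 11 alternatives, a wide margin for a count that cannot exceed 48. Where all 48 genes were kept it ranged from 46 to 48. The CpG-rich set (42) and the set without NDUFA4, NDUFA4L2 and NDUFC2-KCTD14 (45) held only bound genes, so their counts equal their sizes. With the outermost TSS only, NDUFB2 and NDUFAF1 had no promoter peak (46 of 48, against 53.2% of protein-coding genes), and NDUFAF2 fell out when a −log10 q or a fold enrichment of 5 was required (47). The median fold enrichment stayed between 11.4 and 11.9 under 12 alternatives. Its 95% order-statistic interval over the 48 genes, 9.95 to 12.7, served only as a yardstick for a moved value. Genes are not replicates, so such an interval reflects spread between genes and gives no error of the median. Genes at a fold enrichment of 5 or more numbered 43 to 47, and bound genes of the other lists 152 to 158. By the same yardstick, 15 to 55 bp, the median summit distance moved with the outermost TSS only, which leaves 1 TSS per gene, to 91.5 bp. With 100 bp either side of the summit, which takes in more bases, the number of complex I genes with a match was 25 for MYB (52.1%, against 61.5% of bound protein-coding genes in the same window), 5 for the CCAAT box (10.4% against 20.2%), 16 for YY1 (33.3% against 9.68%), 15 for SP1 (31.2% against 51.6%), 2 for ERR (4.17% against 1.6%) and 0 for CHR (against 6.36%). In that window the share was no longer above that of bound protein-coding genes for ETS (22.9% against 24.4%) and E2F (2.08% against 2.43%). For NRF1 it was 12.5% against 3.33%, and for CREB 2.08% against 2.09%. The canonical TSS and the set without NDUFA4, NDUFA4L2 and NDUFC2-KCTD14 were chosen after seeing the data. Among single genes, NDUFAF6 stood at 4.72 with the outermost TSS, and NDUFA4L2 at 2.79 with 0.5 of the peak's length required in the promoter. No paired analysis was possible because ChIP and input comprise 1 library each. Weak peaks such as that of NDUFAF2 rest on about 20 fragments, so differences among them were not detectable at this depth.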
